A study of Mus musculus with 15 samples.

Results

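Bone marrow cells of the group labelled LTearly, from mice carrying an inducible MLL-AF9 fusion gene, were compared here with normal granulocyte-macrophage progenitors (GMPs), labelled wtGMP. The comparison takes 4 LTearly and 4 wtGMP RNA-seq libraries, 8 of the 15 in the series, and was fitted on 14542 of the 20453 genes in the deposited table. All mice were C57BL/6. The transgenic line was made by placing a human MLL-AF9 cDNA into A2Lox-cre embryonic stem cells, a system in which doxycycline turns the inserted gene on, and double heterozygous females entered the experiments. Marrow was depleted of cells bearing the lineage antigens Cd5, B220, Ter119, Gr-1 or Cd11b and sorted as GMPs (c-Kit+, Cd34+, with high FcγRII/III, without IL-7Rα, Sca-1 or lineage antigens) or as long-term stem cells (lineage-, Sca-1+, c-Kit+, Cd34-, Cd48-, Cd150+). The labels do not say which gate an LTearly library came from, what the letters LT, early, late or BMT stand for, the age of any mouse, the doxycycline dose and time, or the genotype of the wtGMP mice beyond wt. They also do not say that libraries of a group came from separate animals, so the p-values measure the spread between these libraries, which may be technical. The other labelled groups, LTlate and BMTGMP with 3 libraries each, entered the same fit and are used for direct comparisons at the end. A further library, titled LTearly but headed LTlate in the count table, was left out of all groups.

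MLL-AF9 joins the N-terminal part of the chromatin regulator MLL to AF9, a subunit of transcription elongation complexes. It keeps a set of stem cell genes, HOXA genes and MEIS1 among them, active in cells that would otherwise mature, and it is a recurrent cause of acute myeloid leukaemia. The GMP is the progenitor that gives rise to neutrophils and monocytes. A neutrophil fills its primary granules first, with myeloperoxidase and serine proteases made at the promyelocyte stage, then its secondary and tertiary granules with lactoferrin, cathelicidin and gelatinase, and it stops dividing and reduces its ribosome production as it matures.

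Values are in CPM, the count of 1 transcript per gene relative to the library total over the genes fitted. They are scaled by TMM factors and not corrected for gene length, so levels are compared between libraries and not between genes. A row of 4 values follows replicates 1 to 4. Fold changes are log2 LTearly over wtGMP, tested by edgeR's quasi-likelihood test, with an approximate standard error after the sign ±. That error is the size of the fold change divided by the square root of the test's F value. The p-values were adjusted by Benjamini-Hochberg over all 14542 genes, and a gene was called at an adjusted p below 0.05. Gene counts ran from 2469452 to 6978682 in wtGMP and from 2696036 to 8695227 in LTearly. The LTearly libraries resembled each other less than the wtGMP libraries did, with rank correlations over genes of 0.861 to 0.903 against 0.913 to 0.942. LTearly replicate 4 lay nearer to the LTlate libraries (0.930 to 0.939) than to the other LTearly libraries (0.866 to 0.903). In 1603 genes of families that blood cells hardly express, such as odorant receptors, keratin-associated proteins and beta-defensins, the summed level was 188.8, 1033, 488 and 523 CPM in wtGMP and 2665, 1777, 2068 and 491 CPM in LTearly, and 374 of them passed the low-count filter, of which 7 were called higher and none lower. The 99th percentile of those families was 10.2, 9.12, 11.6 and 4.36 CPM in LTearly. Of the 1561 genes called higher, 1271 exceeded it in all 4 LTearly libraries. The part of this background in the rises was not tested. The mouse Kmt2a and Mllt3 counts do not measure the human transgene, so no library's label was checked against it.

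Late neutrophil genes and some macrophage genes were higher in LTearly than in wtGMP, and most of the listed genes for making ribosomes and nucleotides were lower. Of 14542 genes, 1561 were called higher (10.7%) and 1375 lower (9.46%), together 2936 (20.2%), and the median fold change of all genes was 0.19. These shares are the background for every list count below. The gene lists were drawn up with earlier results of these data known, and some lists share members. The 4 LTearly values lay above all 4 wtGMP values in 1617 genes (11.1%) and below them in 1577 (10.8%). With LTearly replicate 4 left out 3178 genes were called, and with it as the only LTearly library 1211, of which 1061 were among the 2936. In that last fit 64.7% of calls were higher against 53.2% with all 4 libraries.

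The largest rises were in genes that all or nearly all wtGMP libraries lacked. Tgm2, a transglutaminase of macrophages and neutrophils, had no count in any wtGMP library and 65.7, 16.4, 68.1 and 2.59 CPM in LTearly, at least 162-fold higher when set against a floor of 3 counts over the group. Orm1, an acute-phase plasma protein also stored in neutrophil granules, stood at 9.49, 12.8, 32.6 and 23.1 CPM against no count (at least 110.4-fold higher, adjusted p = 1.46e-05). Ceacam10 (at least 80.4-fold higher, adjusted p = 7.83e-06), a member of a family with near-identical copies, and Treml4 (at least 73-fold higher, adjusted p = 2.18e-05), a TREM-like receptor of myeloid cells, were also without a count in wtGMP. Dhrs9, a retinol dehydrogenase, reached 28.7, 69.3, 221 and 6.01 CPM and had 1 count in wtGMP, a ratio of 926 (95% interval from the counts 166 to 36609; adjusted p = 0.00041). Levels in LTearly replicate 4 were the lowest of the group for Tgm2, Ceacam10 and Dhrs9, yet above every wtGMP value. Tgm2 in replicate 4 lay below the 99th percentile of the families that blood cells hardly express (4.36 CPM). Orm1 in replicate 1 lay below it as well (10.2 CPM there).

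The largest falls included regulators of immature cells. Maged1, an adaptor of the MAGE family, had 7.06, 4.38, 11.4 and 14.7 CPM in wtGMP and no count in LTearly, at least 59.2-fold lower, although this call was lost when the library with conflicting labels was counted as LTearly (adjusted p = 0.25). Smo, the signal transducer of the Hedgehog pathway, was even across wtGMP at 55.6, 49.4, 51.3 and 50.3 CPM and was at 0.949, 0, 0.362 and 0 CPM in LTearly (-7.42 ± 1.57, adjusted p = 0.00498). Sox4, a transcription factor of immature progenitors, fell from 100.4, 116, 105 and 165 to 4.03, 2.08, 1.09 and 11.9 CPM (-4.53 ± 0.70, adjusted p = 0.000483).

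**Figure D1:**
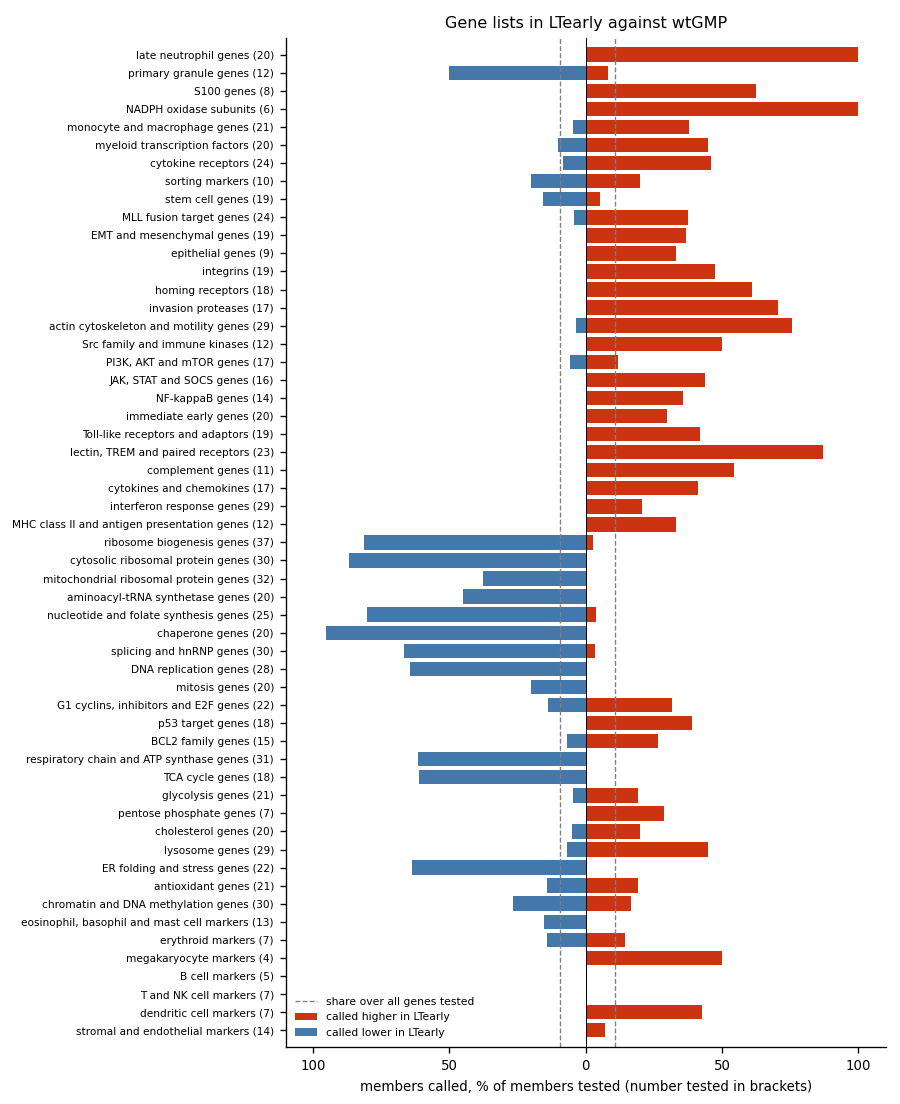
Share of tested members called higher (bars to the right) and lower (bars to the left) in LTearly than in wtGMP, in percent, for the 55 gene lists, with dashed lines at the shares over all genes. The late neutrophil list had all 20 members called higher, while the ribosome biogenesis list had 30 of 37 called lower. The lists were chosen with earlier results of these data known.

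Genes of the later steps of neutrophil maturation rose together. All 20 late neutrophil genes were called higher, with fold changes from 2.26 to 9.54 and a median of 7.18. Over all tested genes 10.7% were called higher, but this list was drawn up with earlier results of these data in view. Most of the 20 genes encode secondary and tertiary granule proteins and surface molecules of mature neutrophils. Their summed level was 251, 246, 365 and 319 CPM in wtGMP and 16015, 20173, 19190 and 15079 CPM in LTearly, so the groups lay far apart and replicate 4 was close to the others. In bulk RNA a change in the number of cells of a type and a change in RNA per cell cannot be told apart.

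The promoters of genes that carry this rise are shown because many granule genes are regulated by C/EBP factors. Members of that family changed in these cells, and a link between those changes and the rise was not tested. The 250 bases before the start of the 3 late neutrophil genes with the smallest p that hold the letters TTGCNNAA (searched on both strands) were taken from RefSeq on GRCm38.p6, and capitals mark each match. The Ngp window is chr9:110419558-110419807 on the plus strand, with matches beginning 138 and 11 bases before the start. The Ltf window is chr9:111019042-111019291, plus strand, with a match 75 bases before the start. The Lcn2 window is chr2:32387740-32387989, minus strand, with a match 216 bases before the start.
Ngp: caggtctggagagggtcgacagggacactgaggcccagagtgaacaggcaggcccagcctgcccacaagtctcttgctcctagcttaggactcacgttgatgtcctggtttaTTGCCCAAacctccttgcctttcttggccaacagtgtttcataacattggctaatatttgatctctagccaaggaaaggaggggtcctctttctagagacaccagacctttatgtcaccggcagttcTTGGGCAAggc
Ltf: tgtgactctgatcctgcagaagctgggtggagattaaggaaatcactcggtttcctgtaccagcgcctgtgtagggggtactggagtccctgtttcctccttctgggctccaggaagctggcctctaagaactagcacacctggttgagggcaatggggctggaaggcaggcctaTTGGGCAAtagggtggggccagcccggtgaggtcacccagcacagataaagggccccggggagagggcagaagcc
Lcn2: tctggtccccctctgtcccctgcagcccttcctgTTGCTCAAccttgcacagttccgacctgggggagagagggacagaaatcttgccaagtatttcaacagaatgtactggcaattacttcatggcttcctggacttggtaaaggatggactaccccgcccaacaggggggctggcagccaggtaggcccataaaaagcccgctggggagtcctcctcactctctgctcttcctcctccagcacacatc
The motif was present in 5 of the 18 late neutrophil windows (27.8%), in 10.2% of those of genes called higher, in 9.41% of those of genes tested and in 10.8% of the 32851 RefSeq windows of 300 bases. A match of 8 letters describes a sequence and is not a measured site.

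Ngp, a neutrophil granule protein, was at 6.62, 18.3, 21.5 and 15.3 CPM in wtGMP and 4403, 5825, 4066 and 3186 CPM in LTearly (8.17 ± 0.65, adjusted p = 8.3e-06). Ltf encodes lactoferrin and stood at 6.05, 18.3, 10.1 and 20.7 CPM against 3071, 5044, 3386 and 2131 CPM (8.01 ± 0.70, adjusted p = 1.66e-05). Camp, the cathelicidin of secondary granules, went from 0.864, 3.98, 1.12 and 2.23 to 714, 1349, 611 and 657 CPM (8.88 ± 0.79, adjusted p = 1.96e-05). In these 3 genes every LTearly library lay far above every wtGMP library. Lcn2, the siderophore-binding lipocalin, reached 563, 458, 807 and 287 CPM from 2.74, 0.797, 0.896 and 6.37 CPM (7.62 ± 0.78, adjusted p = 5.22e-05). Hp, haptoglobin, was already at 157, 122, 172 and 176 CPM in wtGMP and rose to 549, 773, 968 and 703 CPM (2.26 ± 0.19, adjusted p = 1.31e-09), the smallest fold change among the 20. Fpr2, a receptor for formylated peptides, had 3 counts in wtGMP and 49.1, 15.6, 94.8 and 17 CPM in LTearly, a ratio of 198 (95% interval from the counts 67.5 to 964; adjusted p = 3.42e-07). Cd177, a neutrophil surface glycoprotein, was at 5.18, 2.39, 2.91 and 6.37 CPM against 622, 822, 952 and 456 CPM (7.36 ± 0.51, adjusted p = 6.14e-07).

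Several genes of the primary granule list went the other way. Of 12 members, 6 were called lower (Mpo, Elane, Prtn3, Ctsg, Ms4a3 and Calr), where 9.46% of all genes were. Serpinb1a was the 1 called higher, and the median fold change was -1.35. Ms4a3 and Calr do not encode granule contents, and Calr is counted again in the endoplasmic reticulum list. With single libraries left out the number called lower ran from 4 to 7. Mpo, myeloperoxidase, was at 19270, 18148, 15997 and 16904 CPM in wtGMP and 544, 1974, 921 and 4794 CPM in LTearly (-3.09 ± 0.60, adjusted p = 0.00415). Ctsg, cathepsin G, fell from 1343, 1206, 1303 and 1146 to 132, 282, 151 and 489.5 CPM (-2.24 ± 0.35, adjusted p = 0.000576). Elane, neutrophil elastase, fell from 1052, 866, 916 and 853 to 111, 312, 186 and 629.5 CPM (-1.57 ± 0.43, adjusted p = 0.0239). The Elane call was lost when LTearly replicate 2 or 3 or wtGMP replicate 3 was left out (adjusted p up to 0.0608). Ms4a3, a membrane protein of GMPs, was at 104, 74.9, 67 and 55.1 and 14.5, 41.2, 43.8 and 42 CPM (-1.09 ± 0.38, adjusted p = 0.0457). The Ms4a3 call was lost when LTearly replicate 1, 2, 3 or 4 or wtGMP replicate 1, 2 or 3 was left out (adjusted p up to 0.144). LTearly replicate 4 was the highest of its group for Mpo, Ctsg and Elane, and still below every wtGMP library. Calr, calreticulin, an endoplasmic reticulum chaperone needed for myeloperoxidase folding, fell from 19073, 25869, 27855 and 29300 to 6196, 6797, 5320 and 8329 CPM (-1.94 ± 0.17, adjusted p = 3.58e-09). Serpinb1a, an inhibitor of those proteases, rose from 311, 262, 243 and 210.3 to 386, 636, 585 and 889 CPM (1.28 ± 0.34, adjusted p = 0.0153). Srgn, the proteoglycan that packs granules, was at 735, 497, 527 and 555 and 601, 317, 635 and 522 CPM and did not pass the test (-0.16 ± 0.19, adjusted p = 0.625).

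**Figure D2:**
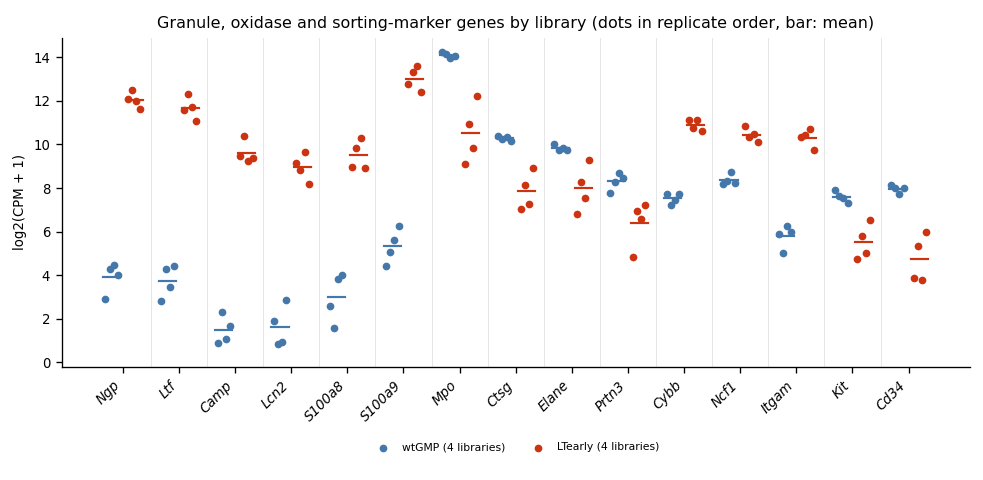
Values as log2(CPM + 1) of granule, S100, oxidase and sorting marker genes in each library of wtGMP and LTearly, 1 point per library and a bar at the mean. Mpo, Ctsg and Elane are lower and Ngp, Ltf and Camp higher in all 4 LTearly libraries, with no overlap between the groups.

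Calcium-binding S100 proteins and the oxidase that makes superoxide rose as well. Of 8 S100 genes tested, from 11 in the table, 5 were called higher and none lower (median 2.10). S100a9, which forms calprotectin with S100a8, rose from 20.7, 32.3, 47.5 and 75.5 to 7032, 10140, 12269 and 5434 CPM (7.64 ± 0.70, adjusted p = 2.49e-05). S100a8 itself rose from 5.04, 1.99, 13.2 and 15 to 499, 925, 1270 and 479 CPM (6.48 ± 0.82, adjusted p = 0.000234). S100a6 rose from 3.17, 5.18, 0 and 0.956 to 72.4, 40.1, 132 and 32.3 CPM (4.94 ± 0.87, adjusted p = 0.00164), whereas S100a10 was at 63.5, 53, 71.9 and 70.7 and 130.0, 63.9, 91.2 and 86.7 CPM and did not pass (0.52 ± 0.28, adjusted p = 0.192). All 6 NADPH oxidase subunits were called higher (median 1.82), and all 6 were also called with LTearly replicate 4 as the only LTearly library. Cybb, the catalytic gp91phox, rose from 210.0, 147, 173 and 209 to 2208, 1749, 2216 and 1590 CPM (3.39 ± 0.20, adjusted p = 2.17e-12). Its membrane partner Cyba rose by 2.26 ± 0.22, the cytosolic Ncf1 and Ncf4 by 2.08 ± 0.19 and 1.54 ± 0.22, and the GTPase Rac2 by 1.33 ± 0.19, with adjusted p from 1.03e-08 to 8.42e-06 for these 4.

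Macrophage genes rose in part. Of 21 monocyte and macrophage genes, 8 were called higher and 1 lower (median 1.93). The lower gene, Ly6c2, a surface antigen of inflammatory monocytes, was at 142, 144, 108 and 164 and 64.8, 113, 59.4 and 123 CPM (-0.63 ± 0.22, adjusted p = 0.0432). The Ly6c2 call was lost when LTearly replicate 1 or 3 or wtGMP replicate 1, 2 or 4 was left out (adjusted p up to 0.153). Lyz2, lysozyme, rose from 445, 364, 564 and 551 to 3981, 6650, 4248 and 5361 CPM (3.39 ± 0.22, adjusted p = 1.72e-10). Adgre1, the F4/80 antigen, rose from 11.5, 13.1, 21.7 and 6.37 to 110.3, 94.6, 106 and 96 CPM (2.94 ± 0.29, adjusted p = 2.56e-08). Cd14, the lipopolysaccharide co-receptor, was at 9.22, 2.79, 4.03 and 1.27 CPM against 129.8, 59.4, 74.2 and 22.5 CPM (3.95 ± 0.58, adjusted p = 5.24e-05). Ctss, the lysosomal protease cathepsin S, was at 757, 1058, 4340 and 654 CPM in LTearly, where replicate 3 stood above the others, and at 135, 141, 176 and 247 CPM in wtGMP (3.28 ± 0.68, adjusted p = 0.00578). F13a1, the coagulation factor subunit of monocytes, was at 1345, 1308, 1495 and 1272 and 428, 1006, 1125 and 1286 CPM and did not pass (-0.50 ± 0.45, adjusted p = 0.519).

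Transcription factors of the granulocyte branch shifted within the C/EBP family. Of 20 myeloid factors tested, 9 were called higher and 2 lower (median 0.55), 4 lower without LTearly replicate 4. Cebpa, needed to form GMPs, fell from 123, 137, 124 and 112 to 17.3, 50.3, 54.3 and 81.4 CPM (-1.28 ± 0.29, adjusted p = 0.00239). Cebpe, which drives secondary granule genes, rose from 28.2, 38.6, 19.5 and 29.6 to 133, 151, 76 and 149 CPM (2.14 ± 0.44, adjusted p = 0.00268). Cebpb, used in emergency granulopoiesis, rose from 36.1, 41.4, 29.4 and 33.5 to 181, 120.2, 256 and 66.3 CPM (2.15 ± 0.30, adjusted p = 1.4e-05). Spi1, the PU.1 factor, rose from 77.8, 110.3, 76.2 and 89.5 to 213, 123, 204 and 108 CPM (0.88 ± 0.22, adjusted p = 0.00406). Id2, an inhibitor of E-protein factors, was at 4.46, 0.797, 0 and 0.319 CPM against 19.5, 48.7, 89.8 and 35.8 CPM (4.85 ± 0.82, adjusted p = 0.000642). Rara, a retinoic acid receptor, was at 18.6, 13.5, 6.5 and 16.2 against 106, 62.6, 59.4 and 24.1 CPM (2.19 ± 0.43, adjusted p = 0.000795). Myc, the growth regulator, fell from 97.5, 106, 56 and 74.2 to 19.2, 39.1, 45.2 and 31.9 CPM (-1.30 ± 0.27, adjusted p = 0.000666). Myb, a factor of cycling progenitors, was at 1529, 1304, 1168 and 1143 CPM in wtGMP and 505, 628, 344 and 1375 CPM in LTearly, with replicate 4 inside the wtGMP range (-0.85 ± 0.39, adjusted p = 0.158), but was called when LTearly replicate 4 was left out (adjusted p down to 0.00144).

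Receptors for growth factors and the antigens used for sorting changed unevenly. Of 24 cytokine receptors tested, 11 were called higher and 2, Il6st and Kit, lower (median 1.01). Csf2ra, the alpha chain of the GM-CSF receptor, rose from 141, 150.2, 127 and 124 to 318, 326, 385 and 283 CPM (1.27 ± 0.16, adjusted p = 9.71e-07). Csf3r, the G-CSF receptor, rose from 85.4, 109, 56.9 and 86.3 to 191, 134, 172 and 151 CPM (0.94 ± 0.22, adjusted p = 0.00217). Il18rap, a chain of the IL-18 receptor, rose by 2.94 ± 0.45. Il6st, the shared gp130 chain, fell to 70.5, 92, 85.1 and 72.2 CPM from 148, 140.2, 194 and 165 CPM (-1.02 ± 0.21, adjusted p = 0.00082). Csf1r, the M-CSF receptor, was at 195, 170.1, 193 and 187 and 287, 193, 346 and 103 CPM and did not pass (0.32 ± 0.45, adjusted p = 0.703).

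Among 10 sorting markers tested, 2 were higher and 2 lower. Kit, the stem cell factor receptor that both gates require, fell from 238, 198, 184 and 157 to 25.9, 54.7, 31.1 and 92 CPM (-1.92 ± 0.45, adjusted p = 0.00768). Cd34, positive in the GMP gate and negative in the stem cell gate, fell from 279.6, 258, 212 and 252 to 13.5, 39.9, 12.7 and 63.1 CPM (-2.93 ± 0.44, adjusted p = 0.000295). Itgam, which encodes the depleted antigen Cd11b, rose from 58.5, 31.5, 76.2 and 61.8 to 1295, 1364, 1688 and 869 CPM (4.51 ± 0.26, adjusted p = 1.3e-10). Ptprc, the pan-leukocyte antigen CD45 whose B220 form was depleted, rose from 351, 323, 364 and 396 to 1266, 1103, 1620 and 925 CPM (1.78 ± 0.17, adjusted p = 2.23e-08). Fcgr3 and Fcgr2b, the receptors that define the GMP gate, did not pass. Fcgr3 was at 303, 249, 259 and 226 CPM in wtGMP and 345, 222, 368 and 344 CPM in LTearly (0.30 ± 0.20, adjusted p = 0.316). Fcgr2b was at 104, 90.8, 100.4 and 54.2 and 161, 86, 145 and 85 CPM (0.44 ± 0.24, adjusted p = 0.194). Both gates take c-Kit-positive cells and both follow depletion of Cd11b, yet Kit RNA was lower and Itgam RNA higher in every LTearly library than in any wtGMP library.

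Of 19 stem cell genes tested, 1 was called higher (Meis1) and 3 lower (Cd34, Kit and Msi2), with a median of 0.54, where 20.2% of all genes were called. Without LTearly replicate 3 the number called lower was 5, and without LTearly replicate 1 or 3 or wtGMP replicate 4 the number called higher was 2. Msi2, an RNA-binding protein of stem cells, fell from 85.1, 63.7, 71.2 and 69.5 to 19.9, 19.3, 10.9 and 15.7 CPM (-2.13 ± 0.37, adjusted p = 9.32e-05). Mecom, which encodes the stem cell factor EVI1, was at 0, 0, 0 and 3.82 CPM in wtGMP and 22.3, 34.1, 31.1 and 20.4 CPM in LTearly, so that the groups did not overlap, but it missed the threshold (4.91 ± 1.80, adjusted p = 0.0756) but was called when wtGMP replicate 4 was left out (adjusted p down to 0.0222). Erg, an ETS factor of stem cells, was at 43.9, 37.8, 39 and 37 against 54.1, 88.4, 48.1 and 89.4 CPM, also without overlap. It was just outside the threshold (0.83 ± 0.30, adjusted p = 0.0504), but was called when LTearly replicate 1 or 3 was left out (adjusted p down to 0.021). Some other processing choices called Erg too, so that 9 of the alternative fits called it and 9 did not.

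Of 24 genes described as MLL fusion targets, 9 were called higher and 1, Bcl2, lower (median 1.28). These genes are part of the fusion's known programme, and the list was drawn up with earlier results of these data in view. Hoxa9 was at 9.94, 19.9, 19.5 and 15.3 CPM in wtGMP and 120.1, 57.1, 60.8 and 66.3 CPM in LTearly (2.25 ± 0.29, adjusted p = 1.72e-06). Its partner Meis1 was at 24.2, 37, 21.5 and 13.4 against 152, 100.1, 128 and 32.5 CPM, lowest in replicate 4 (2.11 ± 0.41, adjusted p = 0.00199). Hoxa7 rose from 30.4, 27.9, 32.3 and 19.1 to 115, 111, 54.7 and 86.8 CPM (1.74 ± 0.24, adjusted p = 6.73e-06). Hoxa10 rose from 0.144, 2.39, 0 and 0 to 33, 21.1, 22.4 and 9.54 CPM (5.44 ± 0.79, adjusted p = 1.24e-05). Pbx3, a cofactor of HOX proteins, rose from 3.17, 8.36, 7.39 and 1.91 to 79.7, 57.1, 55.8 and 53.4 CPM (3.59 ± 0.42, adjusted p = 1.31e-06). Bcl2, the inhibitor of apoptosis, fell from 148, 170.5, 132 and 212 to 21.4, 34.7, 30.1 and 48.8 CPM (-2.29 ± 0.33, adjusted p = 3.93e-05). Mef2c, a factor of myeloid and lymphoid progenitors, was at 313, 310.3, 363 and 449 and 507, 575, 288 and 422 CPM (0.32 ± 0.30, adjusted p = 0.522). The mouse genes Kmt2a and Mllt3, whose human counterparts are joined in the fusion, were measured as well. Kmt2a was at 310.5, 347, 238 and 284 and 358, 371, 204 and 370.0 CPM (0.15 ± 0.19, adjusted p = 0.662), and Mllt3 fell from 30.8, 40.2, 29.6 and 29 to 4.03, 13, 9.41 and 2.12 CPM (-2.20 ± 0.58, adjusted p = 0.00669).

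Genes for adhesion, movement and matrix breakdown rose in most lists, and hardly any fell. Of 19 integrin genes tested 9 were called higher (median 1.11) and of 18 homing receptors 11 (2.25). Of 17 invasion proteases and their regulators 12 were higher (2.10), and of 29 actin and motility genes 22 (0.83). Over all genes tested the share called higher was 10.7%. The 4 lists together had 1 lower gene, the scaffold gene Iqgap2. They share members with the late neutrophil and oxidase lists, Fpr2, Mmp9 and Rac2 among them. Itgb2, the shared beta chain of leukocyte integrins, rose from 40.3, 53.4, 56.7 and 43.6 to 639, 526, 628 and 437 CPM (3.52 ± 0.20, adjusted p = 1.09e-12). Itgb1 and Itga4, the chains of the VLA-4 integrin, did not pass. Itgb1 was at 235, 182, 221 and 182 CPM in wtGMP and 171, 129, 160.0 and 144 CPM in LTearly (-0.44 ± 0.17, adjusted p = 0.0745). Itga4 was at 419, 360.5, 300.2 and 283 and 258, 339, 601 and 513 CPM (0.33 ± 0.21, adjusted p = 0.303). Ccr1, a chemokine receptor of neutrophils and monocytes, rose from 1.87, 1.2, 1.34 and 5.1 to 116, 40.9, 209 and 56.4 CPM (5.50 ± 0.74, adjusted p = 0.000143). Ltb4r1, a leukotriene B4 receptor, rose from 5.04, 11.9, 9.63 and 8.28 to 29.2, 62.6, 43.4 and 45.4 CPM (2.39 ± 0.42, adjusted p = 0.00011). Cd44, the hyaluronan receptor, went from 321, 267, 273 and 313 to 1022, 435, 535 and 453 CPM (1.06 ± 0.23, adjusted p = 0.00159).

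Mmp9, gelatinase B of tertiary granules, rose from 0.144, 0.398, 1.12 and 0.319 to 135, 97.8, 286 and 35.5 CPM (8.12 ± 0.83, adjusted p = 2.15e-05). Adam8, a leukocyte sheddase, rose from 0.288, 1.2, 4.48 and 3.5 to 255, 111, 229.9 and 38.8 CPM (6.12 ± 0.81, adjusted p = 0.000268). Timp2, an inhibitor of such proteases that also takes part in activating them, rose from 0.288, 0.797, 0.896 and 0 to 50.3, 33.6, 88 and 32 CPM (6.68 ± 0.58, adjusted p = 3.17e-09). Plaur, the urokinase receptor, rose by 2.53 ± 0.33. Gsn, gelsolin, which cuts actin filaments, rose from 7.34, 9.96, 6.05 and 6.37 to 115, 199, 88.7 and 142 CPM (4.21 ± 0.27, adjusted p = 5.23e-12). Vcl, vinculin of adhesion sites, rose from 60.1, 69.3, 85.8 and 51.9 to 509, 329, 277 and 269.8 CPM (2.37 ± 0.22, adjusted p = 1.61e-08). Myh9 and Flna, non-muscle myosin and filamin A, rose by 1.34 ± 0.14 and 1.38 ± 0.15 (adjusted p = 7.97e-08 and 8.38e-08), and Cfl1, cofilin, was at 1013, 946, 1035 and 1215 and 1043, 1158, 1422 and 989 CPM and did not pass (0.13 ± 0.16, adjusted p = 0.635).

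Kinases that act below integrins and Fc receptors rose in part. Fgr, a Src family kinase of mature phagocytes, had 3 counts in wtGMP and 220.4, 124, 273 and 66.3 CPM in LTearly, a ratio of 801 (95% interval from the counts 274 to 3889; adjusted p = 1.72e-10). Lyn and Syk, already at 122, 94, 117 and 114 and 225, 201, 176 and 196 CPM in wtGMP, rose by 1.91 ± 0.21 and 1.18 ± 0.16, and the phosphatase Ptpn6 that opposes them by 1.03 ± 0.16. In all, 6 of 12 genes of this list were called higher and none lower (median 1.10).

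Of 19 EMT and mesenchymal genes tested, from 25 in the table, 7 were called higher and none lower (median 1.24). Over all genes tested 10.7% were called higher. The 6 not tested had too few counts and include the listed Snai and Twist factors. Fn1, fibronectin, was at 22.9, 53.4, 118 and 104 CPM in wtGMP and 1982, 1099, 2523 and 1046 CPM in LTearly (4.48 ± 0.76, adjusted p = 0.00171). Ncam1, a neural adhesion molecule also seen in leukaemias, rose from 149, 112, 116 and 140.5 to 337, 681, 304 and 895 CPM (2.10 ± 0.28, adjusted p = 4.43e-05). Igf2r, the mannose 6-phosphate receptor, rose from 2.88, 1.59, 0.896 and 0.319 to 59.8, 85.8, 116 and 56.4 CPM (5.62 ± 0.41, adjusted p = 1.59e-09). Col5a1, a fibrillar collagen chain, had 3 counts in wtGMP and 25.1, 7.82, 43.8 and 10.2 CPM in LTearly, a ratio of 101 (95% interval from the counts 34.4 to 494; adjusted p = 1.42e-06). In LTearly replicate 2 the Col5a1 level lay below the 99th percentile of the families that blood cells hardly express (9.12 CPM). Tgfbr2 rose by 1.86 ± 0.45. Vim and Zeb2, an intermediate filament protein and a repressor related to Zeb1, did not pass. Vim was at 1352, 1420, 1685 and 1479 CPM in wtGMP and 2610, 2268, 2139 and 1465 CPM in LTearly (0.51 ± 0.30, adjusted p = 0.269). Zeb2 was at 1075, 849, 846 and 696 and 1400, 556, 514 and 713 CPM (-0.12 ± 0.28, adjusted p = 0.824). Zeb2 was called when LTearly replicate 1 was left out (adjusted p down to 0.0402). Zeb1, a repressor of epithelial genes, was at 28.9, 57, 24.6 and 35.4 and 78.1, 47.2, 34.4 and 28.6 CPM and did not pass either (0.37 ± 0.38, adjusted p = 0.554).

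Of 9 epithelial genes tested, from 14 in the table, 3 were called higher and none lower (median 3.31). Dsp, desmoplakin, the plaque protein that ties desmosomes to intermediate filaments, rose from 17.9, 11.2, 6.72 and 7.96 to 743, 646, 168 and 713 CPM (5.67 ± 0.82, adjusted p = 0.000593). Jup, plakoglobin, rose from 3.02, 3.58, 7.39 and 3.5 to 26.1, 6.52, 13 and 16.8 CPM (1.83 ± 0.50, adjusted p = 0.00817). The tight junction gene Cldn1 had no count in wtGMP and 17.8, 2.87, 16.3 and 7.66 CPM in LTearly (at least 57.7-fold higher, adjusted p = 0.000202). In LTearly replicate 2 Jup and Cldn1 lay below the 99th percentile of the families that blood cells hardly express (9.12 CPM). Cdh1, E-cadherin, was low in both groups at 4.03, 3.19, 1.34 and 1.91 and 10.2, 14.3, 17 and 2.71 CPM and did not pass (2.06 ± 1.06, adjusted p = 0.173).

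Receptors by which phagocytes sense microbes and dying cells rose broadly. Of 23 lectin, TREM and paired receptor genes 20 were called higher (median 3.37), of 19 Toll-like receptor genes and adaptors 8 (1.83) and of 11 complement genes tested 6 (3.19), with none lower. Tyrobp, the DAP12 signalling adaptor, rose from 139.9, 108, 117 and 107 to 461, 410.3, 550.2 and 305 CPM (1.87 ± 0.19, adjusted p = 3.32e-08). Sirpa, the receptor for CD47, rose from 130.5, 110.3, 106 and 109 to 409, 365, 483 and 305 CPM (1.78 ± 0.17, adjusted p = 1.76e-08). Clec4a1 and Clec4a2, C-type lectins with close copies, rose. Clec4a1 went from 0.72, 0, 0 and 0.637 to 18.5, 18.5, 22.8 and 18.5 CPM (5.64 ± 0.87, adjusted p = 2.46e-05). Clec4a2 went from 12.4, 12.3, 3.81 and 4.46 to 50.8, 75.1, 36.9 and 74.1 CPM (2.84 ± 0.40, adjusted p = 1.29e-05). Clec12a, an inhibitory lectin, was at 466, 365, 313 and 313 and 302, 527, 329 and 821 CPM and did not pass (0.44 ± 0.31, adjusted p = 0.359). Tlr13, a sensor of bacterial ribosomal RNA, rose from 0.576, 0, 1.57 and 0 to 77.6, 54.5, 231 and 49.6 CPM (7.30 ± 0.90, adjusted p = 0.000105). C3, the central complement component, rose from 556, 527, 565 and 656 to 1961, 2697, 1507 and 2594 CPM (1.93 ± 0.19, adjusted p = 3.34e-08).

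Of 17 cytokine and chemokine genes tested 7 were called higher and none lower (median 1.87). Osm, oncostatin M, a gp130 cytokine, rose from 33.7, 33.1, 25.5 and 25.8 to 102, 101, 118 and 51.4 CPM (1.65 ± 0.34, adjusted p = 0.000658). Ccl6, a chemokine of myeloid cells, rose from 1.87, 5.58, 2.24 and 1.27 to 45.6, 40.4, 155 and 67.6 CPM (4.90 ± 0.50, adjusted p = 3.08e-07). Il1b, interleukin 1 beta, rose from 1.3, 1.2, 2.91 and 4.78 to 418, 46.7, 257 and 4.83 CPM (6.19 ± 1.29, adjusted p = 0.00622), with replicate 4 next to the highest wtGMP library. Il1rn, its receptor antagonist, was at 1.01, 1.2, 0 and 0 against 126, 18.2, 49.2 and 14.4 CPM (6.47 ± 1.22, adjusted p = 0.00261).

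Signalling lists had smaller medians. Of 16 JAK, STAT and SOCS genes 7 were called higher (median 0.95), of 14 NF-kappaB genes 5 (0.72), of 20 immediate early genes 6 (0.88) and of 17 PI3K, AKT and mTOR genes 2 (-0.01). Over the 4 lists 1 gene, Mtor, was lower, and its call was lost when LTearly replicate 1, 2 or 3 or wtGMP replicate 1, 2, 3 or 4 was left out (adjusted p up to 0.135). Stat3, the factor activated by G-CSF and gp130 cytokines, rose from 87.9, 77.3, 79.5 and 108 to 132, 176, 312 and 158 CPM (1.14 ± 0.23, adjusted p = 0.000535). Jak1 rose from 189, 189.6, 194 and 171 to 418, 309, 364 and 262 CPM (0.86 ± 0.17, adjusted p = 0.000348). Klf2, a factor that keeps leukocytes quiescent, rose from 13.2, 12.8, 8.96 and 10.5 to 53.6, 60.5, 65.2 and 45.2 CPM (2.30 ± 0.29, adjusted p = 1.38e-06). Zfp36, which speeds the decay of cytokine mRNAs, rose from 87.3, 70.9, 61.4 and 63.4 to 172, 269, 252 and 125 CPM (1.53 ± 0.25, adjusted p = 4.64e-05). Fos was at 589, 486, 522 and 507 and 279, 985, 856 and 361 CPM and did not pass (0.24 ± 0.49, adjusted p = 0.806). Nfkbia, the inhibitor of NF-kappaB, rose from 54.7, 54.2, 50.2 and 62.8 to 239, 155, 153 and 75 CPM (1.49 ± 0.39, adjusted p = 0.0118). The NF-kappaB count fell to 2 without LTearly replicate 1 or wtGMP replicate 1 and to 3 without wtGMP replicate 2, 3 or 4, and the immediate early count to 3 without wtGMP replicate 3.

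Interferon response genes were high in a single LTearly library. Their summed level over 29 genes was 1090, 1030, 1040 and 894 CPM in wtGMP and 1083, 915, 4830 and 817 CPM in LTearly, so only replicate 3 lay above wtGMP. The test called 6 of the 29 higher and none lower (median 1.74), 3 with LTearly replicate 3 left out and 10 with replicate 4 left out. Without LTearly replicate 3, 2 were called lower. Gbp2, an interferon-induced GTPase of a family with close copies, was at 9.94, 33.1, 33.8 and 19.8 CPM in wtGMP and 21.1, 17.5, 1060 and 1.06 CPM in LTearly and did not pass (3.52 ± 1.65, adjusted p = 0.166). Irf1, a factor induced by interferon gamma, was at 84.5, 72.5, 56.9 and 113 and 104, 106, 690.3 and 59.95 CPM (1.55 ± 0.70, adjusted p = 0.148). Cd74, the invariant chain of MHC class II, had 2 counts in wtGMP and 24.7, 16.9, 75.3 and 13.4 CPM in LTearly, a ratio of 217 (95% interval from the counts 59.7 to 1796; adjusted p = 2.69e-07), and 4 of 12 class II genes tested were called higher.

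Spread between LTearly libraries was larger than between wtGMP libraries in general. The median SD of log2 CPM was 0.74 in LTearly and 0.52 in wtGMP, and 9385 of 14542 genes had the larger SD in LTearly. Among genes averaging 20 CPM or more in LTearly, the widest spread was in Saa3, an acute-phase protein, at 16.6, 0, 170.1 and 0 CPM (SD of log2 CPM 4.56), and in Acod1, the itaconate-producing enzyme of activated macrophages, at 311, 25, 85.8 and 0.118 CPM (SD 4.15). Socs3, the feedback inhibitor of gp130 signalling, was at 85.4, 11.2, 95.2 and 0 CPM (SD 3.91). These 3 were highest in replicate 1 or 3 and at or near 0 in replicate 4. In wtGMP Saa3 was at 0.144, 0, 2.02 and 0, Acod1 at 0.144, 0, 0.224 and 12.4 and Socs3 at 4.75, 8.76, 6.72 and 0.637 CPM. Saa3 did not pass the test (adjusted p = 0.119), neither did Acod1 (adjusted p = 0.0665) nor Socs3 (adjusted p = 0.181). Acod1 was called when LTearly replicate 4 or wtGMP replicate 4 was left out (adjusted p down to 0.014) and Socs3 was called when LTearly replicate 4 was left out (adjusted p down to 0.0376).

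**Figure D3:**
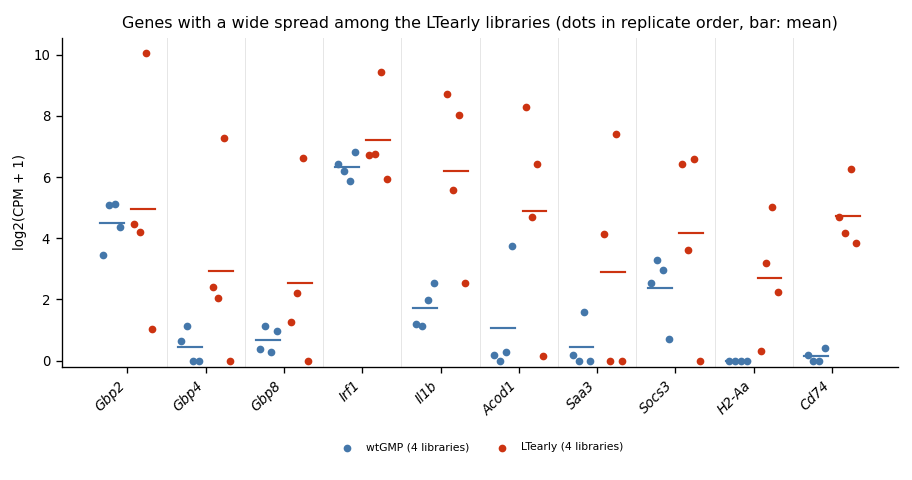
Values as log2(CPM + 1) in each LTearly and wtGMP library for interferon, cytokine and antigen presentation genes, 1 point per library and a bar at the mean. Gbp2 and Irf1 stand highest in LTearly replicate 3, the third of the 4 points.

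Many of the listed genes of protein synthesis were lower, to an extent that differed between lists. Of 37 ribosome biogenesis genes 30 were called lower and 1, Bysl, higher, where 9.46% of all genes were called lower, with a median fold change of -1.25. Also called lower were 26 of 30 cytosolic ribosomal proteins (median -0.72), 12 of 32 mitochondrial ribosomal proteins (-0.90) and 9 of 20 aminoacyl-tRNA synthetases (-0.54), with none of these higher. Without wtGMP replicate 3 the mitochondrial count was 7 and the synthetase count 3, and the latter was 5 without LTearly replicate 2 or 3 or wtGMP replicate 1 or 4. Npm1, the nucleolar chaperone nucleophosmin, fell from 2523, 2299, 2781 and 2590 to 613, 722, 865 and 994 CPM (-1.67 ± 0.17, adjusted p = 6.83e-08). Dkc1, the pseudouridine synthase of small nucleolar particles, fell from 441, 393, 497 and 359 to 116, 89.7, 89.4 and 141 CPM (-1.95 ± 0.20, adjusted p = 3.85e-08). Nolc1 and Nop58, which work with those particles, fell by 1.57 and 1.48 on the log2 scale. Mybbp1a, a nucleolar regulator of rRNA synthesis, fell from 422, 429, 445 and 389 to 175, 131, 151 and 171 CPM (-1.42 ± 0.15, adjusted p = 1.34e-07). No LTearly library overlapped the wtGMP range in any of these 5 genes.

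Many of these genes are known targets of MYC, which binds the E-box CACGTG, and Myc itself was lower. A link between the fall of Myc and that of these genes was not tested. Stretches of 30 bases around the E-box are shown for the 3 genes of the list with the smallest p that hold it in the 300-base window, from RefSeq on GRCm38.p6, with the E-box in capitals. They are Mybbp1a at chr11:72441347-72441376 on the plus strand, Wdr43 at chr17:71616220-71616249 on the plus strand and Utp20 at chr10:88826765-88826794 on the minus strand. The E-box lies 40, 17 and 37 bases after the start of transcription.
Mybbp1a: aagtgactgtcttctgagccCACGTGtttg
Wdr43: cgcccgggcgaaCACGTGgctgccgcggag
Utp20: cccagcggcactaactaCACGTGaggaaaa
The E-box was in 7 of 35 windows of 31 ribosome biogenesis genes (20.0%), in 14.3% of the windows of genes called lower, in 9.05% of those of genes tested and in 7.15% of all 32851. In the 250 bases before the start alone it was in 5.71% of the list's windows and 6.02% of all, so most of the list's matches lie in the 50 bases after the start. The match is a description of letters and not a measured site.

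Rpl4 and Rpl3, proteins of the large ribosomal subunit, fell. Rpl4 went from 7807, 7072, 7476 and 7714 to 3852, 3933, 3660 and 5797 CPM (-0.80 ± 0.16, adjusted p = 0.000384) and Rpl3 from 981, 999, 1071 and 957 to 423, 500.0, 432 and 753 CPM (-0.93 ± 0.18, adjusted p = 0.000283). Replicate 4 was nearest to wtGMP in both, and with that library as the only LTearly library none of the 30 ribosomal protein genes was called (2 were lower at an unadjusted p under 0.05 by edgeR), against 19 of the ribosome biogenesis genes. Ribosomal proteins have many near-identical copies in the genome, so reads of single genes may be shared. Mrpl12, which also stimulates mitochondrial transcription, fell from 49.5, 94, 67.4 and 70.7 to 7.59, 18.5, 22.1 and 15.2 CPM (-2.16 ± 0.35, adjusted p = 4.13e-05). Kars, lysyl-tRNA synthetase, fell from 269.5, 276, 324 and 302 to 129, 101, 106 and 118 CPM (-1.37 ± 0.16, adjusted p = 7.28e-07). Dars, its aspartyl counterpart, was at 272, 298, 261 and 262 and 276, 308, 192 and 339 CPM (0.03 ± 0.18, adjusted p = 0.938).

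**Figure D4:**
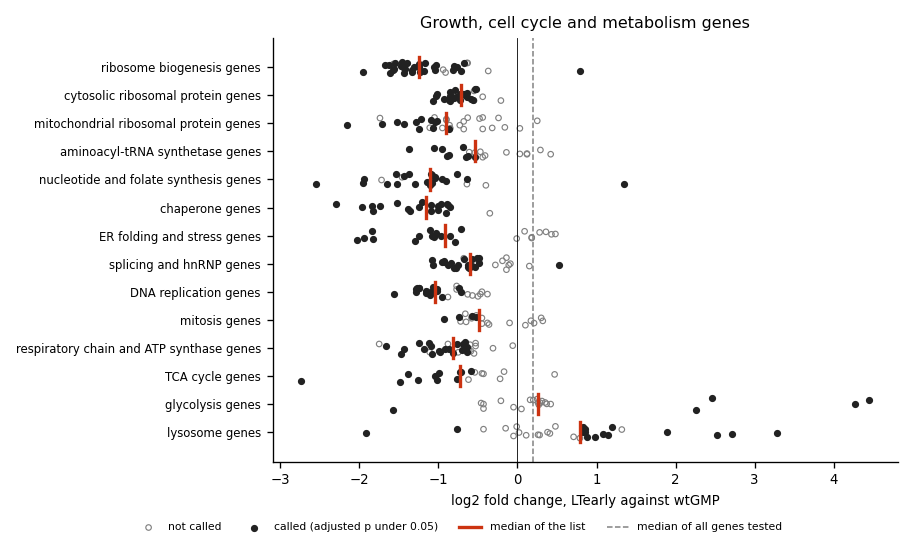
Fold changes (log2, LTearly over wtGMP) of the genes in the growth and metabolism lists, 1 point per gene tested, filled where called, with a bar at each list's median and a dashed line at the median of all genes. Most points of the ribosome biogenesis, chaperone and nucleotide lists lie below 0, with medians of -1.25, -1.16 and -1.11.

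Chaperones and the folding enzymes of the endoplasmic reticulum were lower too. Of 20 chaperone genes 19 were called lower (median -1.16), and of 22 endoplasmic reticulum genes 14 (median -0.91), with none higher. Hsp90ab1, the constitutive HSP90, fell from 9315, 10258, 12325 and 11520 to 3745, 3668, 2819 and 4789 CPM (-1.53 ± 0.17, adjusted p = 1.51e-07). Hspd1 and Hspe1, the mitochondrial chaperonin pair, fell. Hspd1 went from 581, 481, 768 and 524 to 207, 131, 170.1 and 156 CPM (-1.83 ± 0.20, adjusted p = 1.3e-07) and Hspe1 from 216, 174, 316 and 251 to 80.7, 50.6, 53.9 and 58.8 CPM (-1.97 ± 0.24, adjusted p = 8.14e-07). Pdia6 and Pdia4, disulfide isomerases, fell by 1.84 and 1.83 on the log2 scale. Dnaja1, an HSP40, was at 155, 98, 114 and 139 and 122, 129, 76.7 and 70.4 CPM (-0.35 ± 0.23, adjusted p = 0.302). Of 30 splicing and hnRNP genes 20 were called lower and 1, Son, higher (median -0.60). Hnrnpa1 fell from 330.4, 307, 406 and 362 to 140.0, 174, 144 and 207 CPM (-1.08 ± 0.18, adjusted p = 4.97e-05), and Srrm2, a scaffold of nuclear speckles, was at 1261, 1337, 1302 and 1265 and 1367, 1048, 1087 and 1347 CPM (-0.09 ± 0.17, adjusted p = 0.772). With replicate 4 as the only LTearly library 3 splicing genes were called lower, against 15 chaperones. The splicing count was 13 without LTearly replicate 3 or wtGMP replicate 4 and 11 without wtGMP replicate 3.

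Nucleotide synthesis and DNA replication genes fell, while most mitotic genes did not pass the test. Of 25 nucleotide and folate genes 20 were called lower and 1, Mthfd2, higher (median -1.11), and of 28 replication genes 18 were lower and none higher (median -1.04). The Mthfd2 call was lost when LTearly replicate 1 or wtGMP replicate 2 or 4 was left out (adjusted p up to 0.102). Of 20 mitosis genes 4 were lower (median -0.49), 10 without LTearly replicate 2, 7 without wtGMP replicate 2 and 2 without wtGMP replicate 3 or 4. Shmt1, which feeds folate into thymidylate synthesis, fell from 42.9, 48.2, 68.3 and 58 to 10.4, 11.2, 3.62 and 11.1 CPM (-2.55 ± 0.35, adjusted p = 5.06e-06). Cad, the first enzyme of pyrimidine synthesis, fell from 87.9, 128, 135 and 104 to 31.8, 34.4, 52.5 and 38.2 CPM (-1.54 ± 0.23, adjusted p = 1.93e-05). Mcm2, a helicase subunit, fell from 232, 263, 226 and 279 to 78.8, 116, 106 and 109 CPM (-1.29 ± 0.19, adjusted p = 1.65e-05). Pola1, the primase-bound polymerase, fell from 473, 411, 431 and 490.0 to 171, 211, 116 and 239 CPM (-1.29 ± 0.20, adjusted p = 2.8e-05). Mki67, a protein of cycling cells that coats mitotic chromosomes, was at 6195, 6411, 5841 and 6357 and 6153, 9070, 5796 and 7617 CPM (0.21 ± 0.14, adjusted p = 0.327). Top2a, the topoisomerase of dividing cells, was at 2075, 1882, 2237 and 2175 and 1164, 2024, 1491 and 1772 CPM (-0.38 ± 0.16, adjusted p = 0.0944), called when LTearly replicate 2 was left out (adjusted p down to 0.0321). Rrm2, the S-phase subunit of ribonucleotide reductase, was at 122, 88.8, 109 and 137 and 62.6, 101, 112 and 72.1 CPM (-0.40 ± 0.22, adjusted p = 0.195).

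Regulators of G1 moved in both directions, with 7 of 22 called higher and 3 lower (median 0.20). Ccnd3, cyclin D3, rose from 48.1, 54.2, 76.4 and 45.2 to 165, 178, 219 and 126 CPM (1.62 ± 0.22, adjusted p = 6.19e-06). Ccnd2, cyclin D2, fell from 119, 97.2, 111 and 104 to 17.8, 3.13, 16.3 and 18.1 CPM (-2.96 ± 0.59, adjusted p = 0.00204). Cdk4, the kinase of the D cyclins, fell from 82.1, 74.5, 101 and 98.4 to 20.9, 32.8, 35.8 and 51.1 CPM (-1.33 ± 0.27, adjusted p = 0.000626). Cdk6 was at 233, 195, 187 and 156 and 169, 110.0, 146 and 203 CPM and did not pass (-0.30 ± 0.18, adjusted p = 0.272). Rb1, the brake on E2F factors, rose from 31.7, 20.3, 16.6 and 23.6 to 94.2, 48.5, 56.1 and 105 CPM (1.72 ± 0.29, adjusted p = 8.95e-05). E2f2 rose from 19.3, 12.3, 13.7 and 28.7 to 80.2, 127, 94.5 and 70.2 CPM (2.33 ± 0.28, adjusted p = 8.16e-07). The inhibitors Cdkn1a, Cdkn1b, Cdkn1c and Cdkn2d were among the 7 called higher, and the Cdkn2d call was lost when LTearly replicate 1, 2 or 3 or wtGMP replicate 1, 3 or 4 was left out (adjusted p up to 0.16).

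Of 18 p53 target genes tested 7 were called higher and none lower (median 1.28). Btg2, an antiproliferative gene, rose from 85, 44.2, 42.1 and 46.5 to 172, 277, 275 and 206 CPM (2.08 ± 0.24, adjusted p = 4.86e-07). Trp53inp1, a stress-induced p53 cofactor, rose from 8.79, 6.37, 3.81 and 5.1 to 52.4, 49.5, 86.9 and 35 CPM (3.19 ± 0.38, adjusted p = 5.71e-07), and Gadd45a, a growth arrest gene, from 30.5, 35.9, 25.1 and 17.5 to 143, 129, 162 and 46.8 CPM (2.14 ± 0.36, adjusted p = 0.000107). In the BCL2 family 4 of 15 tested were higher and 1, Bcl2, lower, and 8 were higher without wtGMP replicate 3. Mcl1, the survival factor of neutrophils and progenitors, rose from 220.4, 168, 150.1 and 161 to 544, 514, 809 and 324 CPM (1.64 ± 0.26, adjusted p = 0.000161).

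Mitochondrial energy genes were lower and glucose transport higher. Of 31 respiratory chain and ATP synthase genes 19 were called lower (median -0.82) and of 18 TCA cycle genes 11 (median -0.73), with none higher. Idh2, the mitochondrial isocitrate dehydrogenase, fell from 251, 202, 299.6 and 247 to 18.3, 32.6, 38 and 60.1 CPM (-2.74 ± 0.26, adjusted p = 1.78e-08). Sdha, which belongs to both pathways, fell by 1.12 on the log2 scale, and Atp5a1, the alpha subunit of ATP synthase, from 940.2, 756, 1052 and 918 to 392, 445, 451 and 552 CPM (-0.99 ± 0.16, adjusted p = 2.99e-05). Dlst, a subunit of the oxoglutarate dehydrogenase complex, was at 195, 200.3, 188 and 201 and 197, 167, 169 and 164 CPM (-0.17 ± 0.16, adjusted p = 0.505). Of 21 glycolysis genes 4 were called higher and 1, Pfkm, lower (median 0.26). The Pfkm call was lost when LTearly replicate 1, 2 or 4 or wtGMP replicate 1, 3 or 4 was left out (adjusted p up to 0.113). The 4 higher were the glucose transporters Slc2a1 and Slc2a3, the lactate exporter Slc16a3 and Pfkfb4, which controls an activator of glycolysis. Slc16a3 rose from 3.89, 1.99, 2.02 and 2.87 to 84.2, 55.3, 73.1 and 33.7 CPM (4.45 ± 0.36, adjusted p = 9.6e-10). Slc2a3 rose from 6.62, 7.97, 1.12 and 7.65 to 117, 107, 185 and 34.3 CPM (4.27 ± 0.60, adjusted p = 0.000122). The enzymes Pkm and Gpi1 did not pass. Pkm was at 757, 832, 822 and 838 CPM in wtGMP and 1004, 919, 1155 and 949.6 CPM in LTearly (0.31 ± 0.14, adjusted p = 0.124). Gpi1 was at 429.5, 476, 447 and 405 and 491, 510.4, 445 and 698 CPM (0.29 ± 0.16, adjusted p = 0.202). Of 7 pentose phosphate genes, which supply NADPH, 2 were called higher, Pgd by 0.89 ± 0.18 and G6pdx by 0.94 ± 0.25.

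Lysosome genes moved up in part, 13 of 29 higher and 2 lower (median 0.79). The lower genes were Gusb, a call lost when LTearly replicate 1 or 3 or wtGMP replicate 3 was left out (adjusted p up to 0.0636), and Glb1, a call lost when wtGMP replicate 3 was left out (adjusted p up to 0.0682). Ctsb, cathepsin B, rose from 158, 196, 149 and 200.1 to 391, 316, 542 and 373 CPM (1.20 ± 0.20, adjusted p = 6.65e-05). Of 20 cholesterol genes 4 were higher and 1 lower, and the lower call was lost without LTearly replicate 2 or 3 or wtGMP replicate 3 or 4. The exporters Abca1 and Abcg1 rose by 3.79 ± 0.85 and 2.94 ± 0.57. Of 21 antioxidant genes 4 were higher and 3, Sod1, Prdx1 and Prdx2, lower. The Prdx1 call was lost when LTearly replicate 1, 2 or 4 or wtGMP replicate 1, 2, 3 or 4 was left out (adjusted p up to 0.16). Prdx5, a peroxiredoxin of mitochondria and peroxisomes, rose from 129, 126, 141 and 119 to 404, 569, 380.5 and 456 CPM (1.81 ± 0.19, adjusted p = 1.07e-07). Gsr, glutathione reductase, rose from 321, 319, 339.7 and 311 to 620.3, 703, 765 and 945 CPM (1.23 ± 0.19, adjusted p = 2.84e-05). Sod1, the cytosolic superoxide dismutase, fell from 298, 302, 327 and 286 to 95.4, 149.6, 155 and 171 CPM (-1.09 ± 0.18, adjusted p = 8.45e-05).

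Of 30 chromatin and DNA methylation genes 5 were called higher and 8 lower (median 0.17), 5 lower without wtGMP replicate 1. Kdm6b, a demethylase of H3K27, rose from 32.5, 25.5, 31.6 and 33.5 to 232, 90.5, 126 and 82.1 CPM (2.10 ± 0.29, adjusted p = 6.69e-06). Kmt2c, an H3K4 methyltransferase, rose from 394, 380.4, 301 and 331 to 773, 718, 669 and 753 CPM (1.05 ± 0.15, adjusted p = 8.58e-06). Dnmt3b, a de novo DNA methyltransferase, fell from 43.5, 45.8, 84.2 and 77.7 to 9.49, 12, 20.3 and 13.8 CPM (-2.19 ± 0.35, adjusted p = 3.45e-05). The maintenance enzyme Dnmt1 and its partner Uhrf1 fell. Dnmt1 went from 1802, 1886, 1906 and 1887 to 902, 1414, 796 and 1551 CPM (-0.68 ± 0.17, adjusted p = 0.00424) and Uhrf1 from 167, 182, 203 and 189.5 to 74.5, 114, 89.4 and 120.3 CPM (-0.90 ± 0.19, adjusted p = 0.00112).

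Markers of other marrow cells were summed over each list. B cell markers were at 5.10 to 25.5 CPM in wtGMP and 14.7 to 27.5 CPM in LTearly, T and NK cell markers at 10.8 to 31.9 and 32.8 to 48.4 CPM. Erythroid markers were at 110.5 to 178.8 and 60.2 to 96.6 CPM and megakaryocyte markers at 10.1 to 26.7 and 26.6 to 78.0 CPM. Dendritic cell markers were at 2.74 to 9.96 and 31.5 to 67.7 CPM and stromal and endothelial markers at 103 to 147 and 88.4 to 106 CPM. The T cell gene Cd3e had no count in wtGMP and 0, 9.38, 0.362 and 0 CPM in LTearly. Called members were 3 of 7 dendritic, 2 of 4 megakaryocyte, 1 of 7 erythroid and 1 of 14 stromal genes higher, 1 erythroid gene (Tfrc) lower, and no B, T or NK gene either way. The dendritic count was 1 without wtGMP replicate 3 or 4, and the megakaryocyte count 1 without LTearly replicate 2 or 4 or wtGMP replicate 3 or 4. The higher erythroid call was lost without LTearly replicate 1 or any single wtGMP library. The higher stromal call was lost without LTearly replicate 3 or wtGMP replicate 3, and without LTearly replicate 4 another stromal gene was called lower. Eosinophil, basophil and mast cell markers summed to 281, 286, 356 and 284 CPM in wtGMP and 101, 120, 255 and 185 CPM in LTearly, and 2 of 13 tested were lower. Prg2, the eosinophil major basic protein, fell from 74.9, 81.7, 180.1 and 98.1 to 1.9, 6.52, 10.5 and 19.8 CPM (-3.44 ± 0.66, adjusted p = 0.00321). Mcpt8, a basophil protease, fell from 23.9, 23.9, 19.7 and 22.3 to 0.712, 0, 5.07 and 6.12 CPM (-2.89 ± 0.82, adjusted p = 0.0114). The part of these cells in the other results was not tested.

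LTearly was also set directly against the other leukaemia groups in the same fit. Few genes separated it from LTlate, 18 higher (0.124%) and 20 lower (0.138%), and more from BMTGMP, 476 higher (3.27%) and 441 lower (3.03%), in all 0.261% and 6.31% of the genes tested. The first count is unstable: it was 198 without LTearly replicate 4, 4 without LTlate replicate 4 and 10 without LTlate replicate 3. The comparisons share the LTearly libraries and are given side by side.

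Zeb1 was at 78.1, 47.2, 34.4 and 28.6 CPM in LTearly, 8.99, 4.96 and 3.29 CPM in LTlate and 4.49, 5.2 and 6.44 CPM in BMTGMP, higher in LTearly by 3.03 ± 0.46 (adjusted p = 0.00566) and 3.14 ± 0.47 (0.000131). Ppp1r9a, a neurabin scaffold of actin, was at 22.8, 23.7, 16.6 and 6.12 CPM against 1.9, 0.974 and 1.37 CPM in LTlate (3.59 ± 0.67, adjusted p = 0.0124). The Ppp1r9a call was lost when LTlate replicate 3 or 4 was left out (adjusted p up to 0.106). Satb1, a chromatin organiser of lymphoid and stem cells, was at 10.7, 32.1, 19.9 and 13 CPM against 5.2, 3.01 and 3.7 CPM in LTlate (2.24 ± 0.50, adjusted p = 0.0466). The Satb1 call was lost when LTearly replicate 2 or 3 or LTlate replicate 2, 3 or 4 was left out (adjusted p up to 0.208). Lgals1, galectin 1, was lower in LTearly at 101, 162, 128 and 148 CPM against 271, 398 and 458 CPM (-1.48 ± 0.24, adjusted p = 0.00602). Lmo2, a cofactor of stem cell transcription complexes, was also lower, at 47.9, 45.9, 40.2 and 55.4 against 73.7, 132 and 152 CPM (-1.33 ± 0.26, adjusted p = 0.0209). The Lmo2 call was lost when LTearly replicate 2 or 3 or LTlate replicate 3 or 4 was left out (adjusted p up to 0.193).

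Against BMTGMP the desmosomal gene Dsp was higher, at 743, 646, 168 and 713 CPM in LTearly and 3.08, 0.91 and 15.6 CPM in BMTGMP (6.56 ± 0.97, adjusted p = 0.00306). Erg was at 5.05, 16.6 and 6.65 CPM in BMTGMP, below every LTearly library (2.89 ± 0.36, adjusted p = 1.4e-05). Cybb and Lyz2 were at 278, 470.4 and 249 and 1967, 1535 and 1104 CPM, higher in LTearly by 2.54 ± 0.22 and 1.72 ± 0.23 (adjusted p = 6.13e-08 and 6.37e-05). Mgl2, a macrophage lectin, was lower in LTearly, at 0.712, 0, 3.98 and 5.18 CPM against 183, 188 and 221 CPM in BMTGMP (-6.21 ± 0.79, adjusted p = 0.000772). Igf2r lay between the groups. It was higher in LTearly than in LTlate (20.9, 20.02 and 18.4 CPM, adjusted p = 0.0105). The Igf2r call was lost when LTlate replicate 3 or 4 was left out (adjusted p up to 0.106). It was lower than in BMTGMP (242, 223 and 448 CPM, adjusted p = 0.000664). Csf3r was at 68.1, 43.2 and 58.7 CPM in LTlate and 70.2, 57.2 and 69 CPM in BMTGMP, lower than in LTearly in both (adjusted p = 0.00602 and 0.00119). The first call was lost when LTlate replicate 3 was left out (adjusted p up to 0.059). C3 was at 1154, 918 and 715 and 1131, 1765 and 1230 CPM, also lower than in LTearly in both (adjusted p = 0.00712 and 0.0435). The call against LTlate was lost when LTlate replicate 4 was left out (adjusted p up to 0.0753). That against BMTGMP was lost when BMTGMP replicate 1 or 4 or LTearly replicate 2 or 4 was left out (adjusted p up to 0.223). Osm was at 25.2, 12.8 and 42.2 and 6.17, 12.7 and 8.94 CPM (adjusted p = 0.0319 and 9.44e-06). The call against LTlate was lost when LTearly replicate 1, 2 or 3 or LTlate replicate 2 or 3 was left out (adjusted p up to 0.18).

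**Figure D5:**
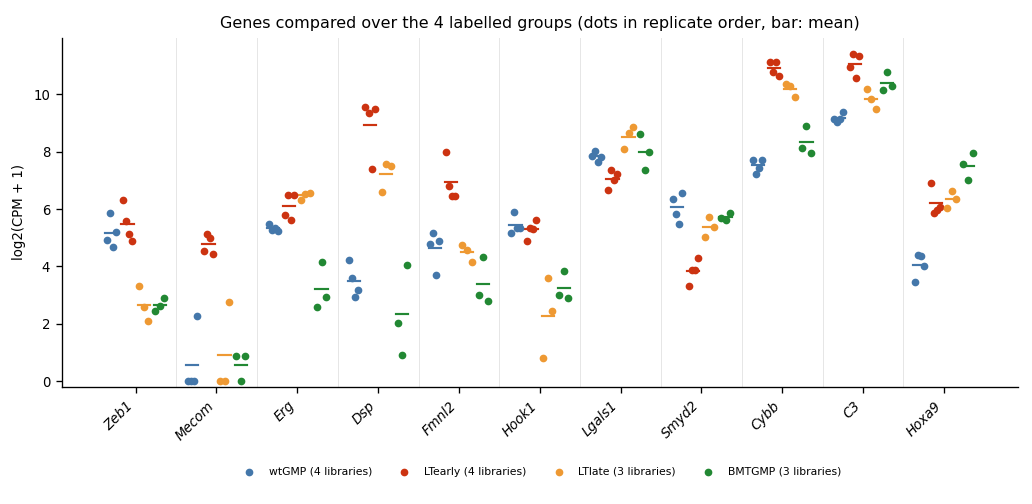
Values as log2(CPM + 1) in each library of wtGMP, LTearly, LTlate and BMTGMP for 11 genes, 1 point per library and a bar at the mean. Zeb1 is lower in LTlate and BMTGMP than in every LTearly library, while Dsp is low in wtGMP and BMTGMP.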

How the data were processed

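RNA of sorted marrow cells was made into libraries from 150 ng of total RNA with a low-input ScriptSeq kit, per the labels' protocols. The authors deposited 1 table of estimated counts per RefSeq transcript of mm9, per the file headers, in which a read was kept with up to 100 hits. Values that were not whole (tolerance 1e-06) made up 13.75% of the table, as when a read is divided among its hits, and genes with near-identical copies are uncertain. Bowtie 0.9.9.1 is named, per the submitters' processing notes. Whether counting used strand is not given in the sources used here. The part of the count in each library that matched no gene symbol was 3.5 to 4.2%, and it was left out. Of 28847 transcripts 26092 were matched to a gene, and the transcript with the highest mean count stood for its gene (20453 genes). The counts of a gene's other transcripts were left out as well. Kept were 6978682 of 9814539 counts in wtGMP replicate 1 and 8695227 of 12312050 in LTearly replicate 4.

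Counts were rounded to whole numbers, filtered with filterByExpr, scaled by TMM and fitted with edgeR 4.0.16 (R 4.3.3, robust quasi-likelihood) on the 14 libraries of the labelled groups together. P-values were two-sided and adjusted by Benjamini-Hochberg, with calls at an adjusted p under 0.05. The log2 CPM used for spreads had a prior count of 2. A gene without counts in a group was set at a floor of 3 counts over the group, and a gene with 1 to 3 counts has a ratio with an exact 95% interval, both covering counting error only. Identical libraries were looked for (0 of 105 pairs). The 1 library whose title and column name disagree was left out of every group, and 1 column that matches no sample was not used. In data simulated for LTearly against wtGMP over 14542 genes, 67% of 4-fold and 26% of 2-fold changes were recovered, and 4.12% of calls were false. There 100 genes were changed 4-fold and 100 2-fold, all of at least 5 CPM, fewer than were called in the data. All groups shared 1 spread per gene, although the LTearly libraries spread more, so these shares need not hold for the real comparison.

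The genes compared and the 55 gene lists (1022 genes with a row of 1028 asked, 6 not analysed here) were chosen with earlier results of these data known. Genes were named by this rule: the 15 largest rises and falls among called genes of at least 5 CPM whose groups do not overlap; up to 5 called members of each list with the smallest p and up to 2 not called with the highest mean; all sorting markers, oxidase subunits and other-cell markers where a level is given; Kmt2a, Mllt3, Hoxa9, Meis1, Mecom, Zeb1, Erg, Spi1, Cebpa, Cebpe, Myb and Myc; the 10 widest spreads among genes of at least 20 CPM in LTearly; the 5 largest differences in each direction against LTlate and BMTGMP; and genes whose sequence is shown. Bysl, Cdkn1a, Cdkn1b, Cdkn1c, Cdkn2d, Elane, Glb1, Gusb, Iqgap2, Ly6c2, Ms4a3, Mthfd2, Prdx1 and Son fall outside it and were chosen after their values were seen. Some genes that the rule admits are not reported here.

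Alternatives were DESeq2 1.42.0, median-ratio size factors, all genes with a count, genes reaching 1 CPM in 3 libraries, a replicate block, the library with conflicting labels as LTearly, only the compared groups in the fit, transcripts summed per gene, libraries thinned to 2469452 counts and each library left out. A fit with LTearly replicate 4 as the only LTearly library was chosen after seeing the data.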

Additional observations from a re-analysis of the deposited data

Results flagged for a closer look

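In the genes named in any comparison, a library of LTearly or wtGMP far from the other 3 of its group was looked for by Dixon's test. It was found in 16 of 404 groups of 4 libraries (3.96%, 205 genes). The test's nominal rate of about 1 in 20 assumes normal values and genes not chosen by their results, so it need not hold here. For Dhrs9 and Mecom 3 wtGMP libraries had no count, so the remaining value was bound to stand apart. In LTearly replicate 1 these were Ms4a3 at 14.5 CPM, below the others, and Pbx3 at 79.7 CPM, above them. In LTearly replicate 2 they were Ccnd2 at 3.13 CPM and Fcgr3 at 222 CPM, both below the others. In LTearly replicate 3 Dsp at 168 CPM, Kmt2a at 205 CPM and Shmt1 at 3.62 CPM lay below the other libraries, and Clec4a1 at 22.8 CPM above them. In LTearly replicate 4 Rpl4 at 5797 CPM lay above the others. Among the wtGMP libraries, Btg2 at 85 CPM and Dhrs9 at 0.144 CPM were high in replicate 1, and Cdkn1a at 1.20 CPM was apart from the others in replicate 2. In wtGMP replicate 3 Cdkn1c at 5.15 CPM and Slc2a3 at 1.12 CPM were apart from the others, and in replicate 4 Acod1 at 12.4 CPM and Mecom at 3.82 CPM were high.

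In the library left out for its conflicting labels, the 20 late neutrophil genes summed to 27958 CPM, above the wtGMP range of 246 to 365 CPM and above the 4 LTearly libraries.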

How the results depend on the processing

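Against wtGMP the number of called genes, 2936, was 3607 with DESeq2, 2959 with median-ratio size factors, 2842 without a low-count filter, 2863 with a filter of 1 CPM, 3200 with the library of conflicting labels as LTearly, 2576 with only these groups in the fit, 2768 with summed transcripts and 3112 after thinning. Leaving out 1 library gave 2340 to 3178, 1307 to 1667 higher and 1033 to 1511 lower. LTearly replicate 4 as the only LTearly library gave 1211 (783 higher and 428 lower), with 127 and 95 distinct list members higher and lower against 250 and 238. A lone library is assumed there to vary like the other groups. The median fold change of all genes was 0.19, and it was 0.32 without a filter, 0.05 with only these groups in the fit and -0.02 with LTearly replicate 4 alone.

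Against LTlate the 38 calls (18 higher and 20 lower) became 251 with DESeq2 (175 and 76), 86 with the library of conflicting labels as LTearly (33 and 53), 141 without a filter (51 and 90) and 21 with summed transcripts (8 lower). Those called lower were 33 with a filter of 1 CPM, 10 with median-ratio size factors and 8 with only these groups in the fit. Leaving out 1 library gave 4 to 198 (3 to 67 higher and 1 to 131 lower). Against BMTGMP the 917 calls (476 and 441) became 1474 with DESeq2 (950 higher), 407 with only these groups (267 and 140) and 218 with LTearly replicate 4 alone (137 and 81). Leaving out 1 library gave 583 to 1269 (278 to 627 higher and 245 to 642 lower). The cause of these differences was not tested.

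No pairing of libraries by replicate number was seen, although the values cannot exclude one. Deviations of wtGMP and LTearly libraries with the same number had correlations of -0.056, 0.0263, 0.00436 and 0.0256 for replicates 1 to 4. Of the 4 wtGMP libraries 1 correlated best with the LTearly library of its own number. With the replicate block 2758 genes were called against wtGMP (1410 higher and 1348 lower), 41 against LTlate and 806 against BMTGMP. Among named genes the block lost the calls of Cdkn2d, Mtor, Pfkm and, against LTlate, Osm, added those of Mecom and Myb, and changed no other.

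With LTearly replicate 4 as the only LTearly library, fold changes of the other sign were found for Acod1 (-4.58), Cdk6 (0.07), Cdkn1a (-0.15), Cfl1 (-0.09), Csf1r (-0.85), Fcgr2b (-0.04), Fos (-0.54), Gbp2 (-4.48), Irf1 (-0.44), Myb (0.10), Saa3 (-5.16), Socs3 (-8.36), Srrm2 (0.06), Vim (-0.02) and Zeb1 (-0.34), of which Cdkn1a had been called. Single libraries left out changed the sign of Dars (-0.02 and -0.05 without LTearly replicates 2 and 4, range -0.05 to 0.20), Fos (-0.08 without LTearly replicate 2, range to 0.48), Gbp2 (-0.83 without LTearly replicate 3, range to 3.93), Srgn (0.02 without LTearly replicate 2 and 0.01 without wtGMP replicate 1, range from -0.24) and Zeb2 (0.01, 0.07 and 0.04 without LTearly replicate 2, LTearly replicate 3 and wtGMP replicate 1, range from -0.54). None of these had passed the test with all libraries. Calls of named genes against wtGMP also moved with processing choices. The counts that follow cover all alternatives, with single libraries left out and LTearly replicate 4 alone included. The Mtor call was lost in 14 and the Pfkm call in 12. Those of Cdkn2d, Ly6c2 and Ms4a3 were each lost in 11 and that of Prdx1 in 10, while Erg was gained in 9.

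In the bases before the start alone the E-box was in 6.02% of all promoters (7.15% with the bases after it) and in 5.71% of those of ribosome biogenesis genes (20.0%), and the C/EBP letters in 9.56% of all (10.8%). The smallest wtGMP library, at 2469452 counts, and the smallest LTearly library, at 2696036, limit what can be seen in genes of few counts.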

Other observations

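The library with conflicting labels, titled LTearly but headed LTlate in the count table, entered no comparison, and its values are given alone. Of the late neutrophil genes, Ngp was at 4735 CPM and Ltf at 2650 CPM, and S100a9 was at 7011 CPM. Of the primary granule genes, Mpo was at 2296 CPM and Ctsg at 372 CPM. The sorting antigens Kit and Cd34 were at 50.9 and 6.79 CPM and Itgam at 1528 CPM. Hoxa9 was at 122 CPM, Meis1 at 414 CPM and Mecom at 92.4 CPM, the latter pair above every labelled library. Of the genes that separated LTearly from LTlate or BMTGMP, Zeb1 was at 64.6 CPM, Dsp at 527 CPM, Erg at 108.5 CPM and Igf2r at 147 CPM.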
